A study of Mus musculus with 20 samples.

Results

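Mitosis needs a large set of proteins that a resting cell does not use, and this account follows 46 genes for them among the 54532 genes of the deposited expression table. The genes were taken by their mouse symbols, from a list of kinases and cyclins of mitotic entry, kinetochore and checkpoint proteins, spindle motors and cytokinesis factors. All 46 symbols matched 1 Ensembl identifier each. The study measured messenger RNA by sequencing in 20 libraries from C57BL/6 mice: 2 of undamaged liver, 2 at each of 8 times after a 70% partial hepatectomy (PHx, surgical removal of most of the organ), and 2 of organoids. The organoids (Hep-Org) were grown in Matrigel from hepatocytes and collected after passaging. Liver was taken 6, 12, 24, 48 or 72 h, or 7, 14 or 21 d, after surgery. The growth protocol says that the liver RNA came from freshly isolated hepatocytes. A cell type label (primary hepatocyte) is present for the undamaged libraries and for replicate 1 of each PHx time, and replicate 2 of each PHx time carries the tissue label liver only. The series text calls the later PHx libraries a second submission. No label gives the age or sex of the mice, how many went into a library, or the passage of the organoids. Whether 2 replicates were 2 animals or 2 cultures is also unstated, and a p-value here covers the spread between libraries, which may be technical.

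Adult hepatocytes rest outside the cell cycle, and removal of liver mass makes them re-enter it. Cyclin-dependent kinase 1 with its cyclins starts mitosis. The spindle then attaches to chromosomes at kinetochores, a checkpoint holds back the anaphase-promoting complex until all are attached, and a ring and midzone finally divide the cell. Many of these genes are transcribed mainly late in the cycle, under the MuvB, B-Myb and FOXM1 regulators, and are repressed in resting cells. Hepatocytes can also replicate their DNA without dividing, which leaves polyploid or binucleate cells.

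Levels are given as FPKM (fragments counted per length of exon and per size of the library). Recovered read totals ran from 13.7 to 41.3 M per library, and the 46 genes had 22 to 1838 reads each in the 72 h libraries. The FPKM of a library summed to between 167676 (Hep-Org replicate 2) and 988797 (undamaged replicate 2), so the scale differs between libraries. Recovered reads were 0.478 times the library size implied by the FPKM in Hep-Org replicate 2. They were 1.94 times it in undamaged replicate 2, so the size used was not the recovered read total. How the scale was set is not given in the sources used here. All 6 libraries of 48 h, 72 h and 7 d and Hep-Org replicate 2 had Xist at 13.6 to 25.3 FPKM and Ddx3y at 0.0076 FPKM or less, while Xist was at most 0.137 FPKM in the others. Sex and time after surgery therefore cannot be told apart in the comparisons of 48 h, 72 h and 7 d with undamaged liver. The summed FPKM of 8 hepatocyte markers was 24339 to 76332 in the liver libraries and 4872 and 1046 in the Hep-Org libraries. Of the cholangiocyte markers, Spp1 was at 4416 and 2695 FPKM in the Hep-Org libraries, against 3.63 to 333 FPKM in liver. The keratin gene Krt19 was at 9.80 and 17.3 FPKM in Hep-Org and at 0 to 2.99 FPKM in liver, and the epithelial adhesion gene Epcam at 6.89 and 5.24 FPKM against 0 to 1.36 FPKM, so the organoid label is followed here by its culture and not as a marker-defined cell type. All 7 Kupffer cell markers were above 0 in every liver library, and their sum ran from 24.9 (undamaged replicate 1) to 756 FPKM (7 d replicate 2). The liver libraries therefore held RNA of other cells than hepatocytes. In bulk RNA, fewer cells in mitosis and less RNA of these genes per cell cannot be told apart.

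The median of the 46 genes was under 1 FPKM in most liver libraries and stood far higher in 4 of them: replicate 1 at 48 h, both replicates at 72 h and replicate 2 at 7 d. Their median level was 4.20 FPKM in replicate 1 and 0.414 FPKM in replicate 2 at 48 h. At 72 h it was 4.82 and 3.39 FPKM, and at 7 d it was 0.169 and 3.57 FPKM. The undamaged libraries had medians of 0.0598 and 0.644 FPKM. At 6 h the medians were 0.317 and 0.223 FPKM, at 12 h 0.0937 and 0.0613, and at 24 h 0.462 and 0.0940. At 14 d they were 0.226 and 0.473 FPKM, and at 21 d 0.149 and 0.489. Both Hep-Org libraries were in between on the deposited scale, at 1.88 and 1.72 FPKM. With every library rescaled to the same FPKM sum, the Hep-Org medians were 5.04 and 5.07, between the 72 h medians of 5.96 and 4.54. Not every gene was low in the other libraries: Pttg1 was at 5.66 FPKM or more in all liver libraries, and Smc4 did not fall below 1.12 FPKM. At 72 h 44 of the 46 genes reached 1 FPKM in each library, and 42 did so in replicate 1 at 48 h and 44 in replicate 2 at 7 d. In replicate 2 at 48 h and replicate 1 at 7 d, 7 and 5 genes did.

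**Figure D1:**
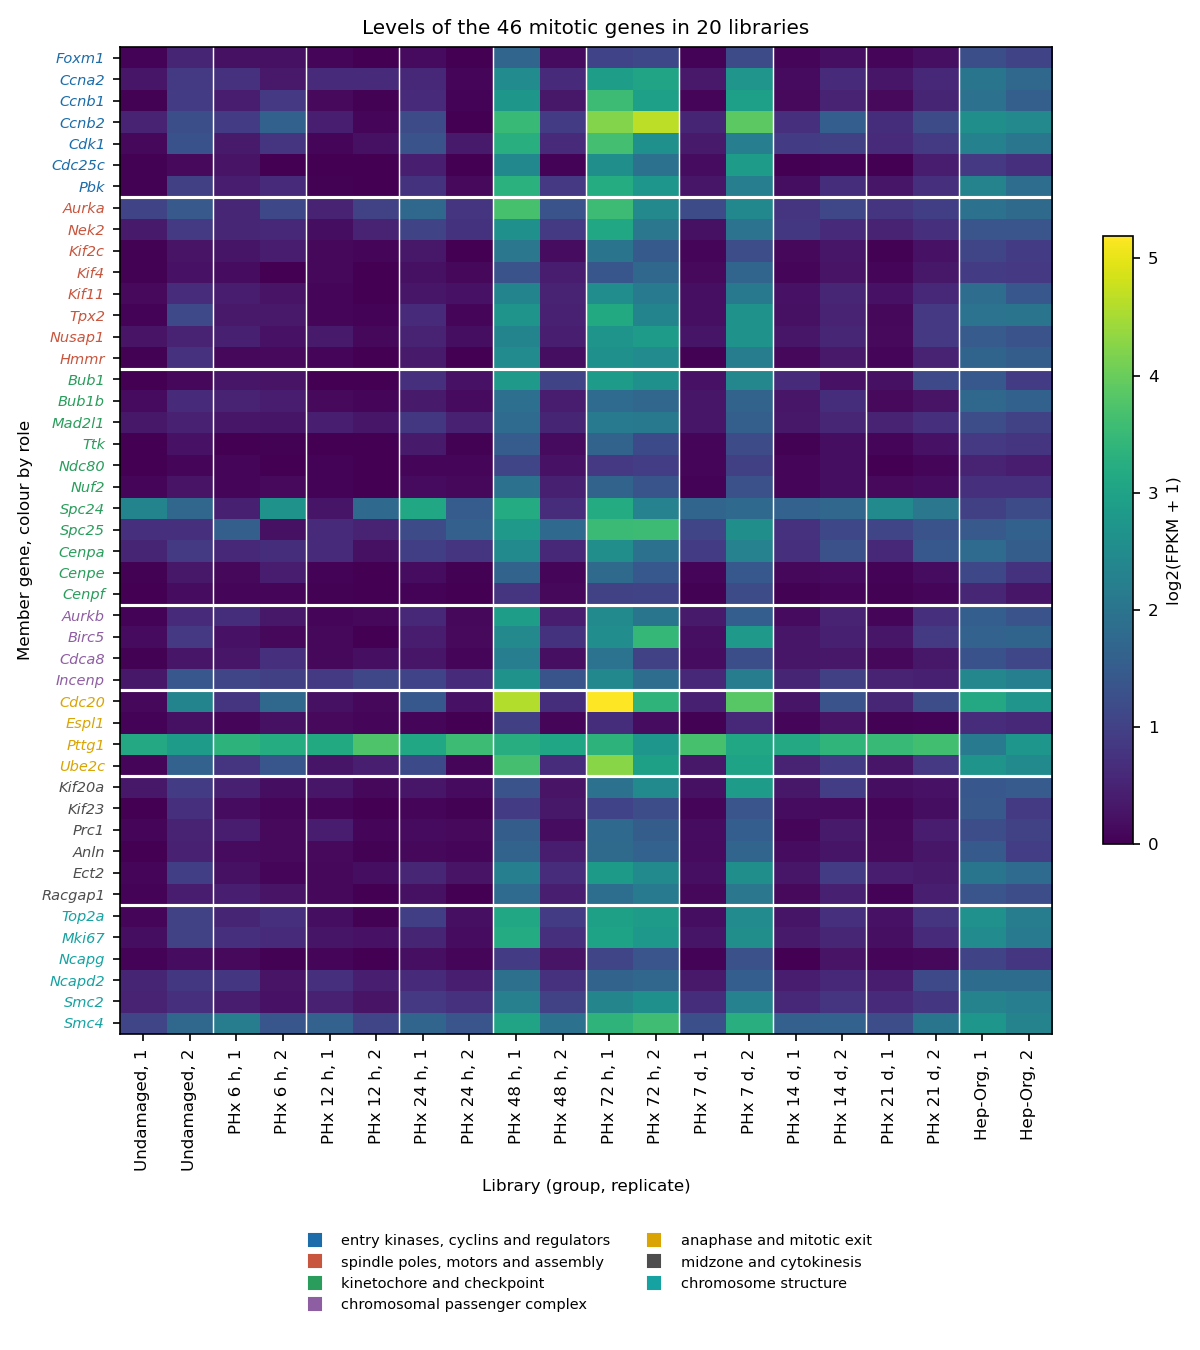
Levels of the 46 mitotic genes (rows, coloured by role) in the 20 libraries (columns, group and replicate) as log2(FPKM + 1) on a colour scale. Replicate 1 at 48 h, both 72 h libraries and replicate 2 at 7 d stand out in nearly every row, both Hep-Org libraries are intermediate on this deposited scale, and the row of Pttg1 is bright throughout.

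For 43 of the 46 genes those 4 libraries were the highest 4 of the 18 liver libraries, against 235 of 13162 genes tested (1.79%). This pattern was picked after the values were seen and is a description, and all 4 libraries are of times with high Xist. It was found for 54 of 83 other mitotic genes and for 7 of 28 DNA replication genes. The 3 genes without it were Spc24, Espl1 and Pttg1. On the deposited scale the highest of all 20 values was in replicate 1 at 72 h for 16 genes, in replicate 1 at 48 h for 15, in replicate 2 at 72 h for 10 and in replicate 2 at 7 d for 3. Of the remaining 2 genes, Kif23 was highest in Hep-Org replicate 1 and Pttg1 in replicate 2 at 12 h. Rescaled to the same FPKM sum, 20 of the 46 genes were highest in a Hep-Org library, while the 4 liver libraries were the highest of the 18 for 43 genes.

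Because the genes moved together across libraries, their promoters were searched for the elements that late cell cycle genes are known to carry: the cell cycle homology region, or CHR (TTTGAA or TTCGAA), and the CCAAT box (CCAAT) bound by NF-Y. RefSeq (GRCm38.p6) gave a start for 36 of the 46 genes, and both strands of the 250 bases before it were read. A gene with more than 1 start was counted when any of its starts had the element. A CHR was found for 15 of them (41.7%), against 19.6% of the 27025 genes in the table. A CCAAT box was found for 28 (77.8%, against 37.5%), and 18 had 2 or more (50%, against 11.5%). A CHR together with 2 or more CCAAT boxes was found for 8 genes (22.2%, against 2.01%). For 73 other mitotic genes with a start, the shares in the same order were 38.4%, 58.9%, 32.9% and 10.96%. For 23 DNA replication genes they were 26.1%, 65.2%, 30.4% and 8.7%, so these elements are not particular to the 46 genes. A match gives the letters only and shows no binding. All 5 chromosome structure genes with a start in the table had both kinds of element, while 1 of 10 kinetochore and checkpoint genes had a CHR. The 4 windows below show how the boxes lie, and belong to the 4 genes with the largest F over the PHx times among the 8 with a CHR and 2 or more CCAAT boxes. They run 5′ to 3′ on the coding strand up to the base before the start, with CHR and CCAAT matches on either strand (ATTGG and TTCAAA are the reversed forms) in capitals. They are Ccnb2 at chr9:70421555-70421804, Ect2 at chr3:27153855-27154104, Top2a at chr11:99024190-99024439 and Mki67 at chr7:135716380-135716629, all on the minus strand.
Ccnb2: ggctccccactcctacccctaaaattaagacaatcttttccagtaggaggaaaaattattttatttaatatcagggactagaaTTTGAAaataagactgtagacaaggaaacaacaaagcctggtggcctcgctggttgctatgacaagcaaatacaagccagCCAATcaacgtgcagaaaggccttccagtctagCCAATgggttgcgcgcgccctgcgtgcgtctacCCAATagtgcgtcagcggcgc
Ect2: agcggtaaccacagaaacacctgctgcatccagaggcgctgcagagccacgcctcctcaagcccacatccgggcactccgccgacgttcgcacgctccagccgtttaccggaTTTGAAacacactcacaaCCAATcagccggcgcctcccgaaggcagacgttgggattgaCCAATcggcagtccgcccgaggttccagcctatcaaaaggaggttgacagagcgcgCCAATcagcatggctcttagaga
Top2a: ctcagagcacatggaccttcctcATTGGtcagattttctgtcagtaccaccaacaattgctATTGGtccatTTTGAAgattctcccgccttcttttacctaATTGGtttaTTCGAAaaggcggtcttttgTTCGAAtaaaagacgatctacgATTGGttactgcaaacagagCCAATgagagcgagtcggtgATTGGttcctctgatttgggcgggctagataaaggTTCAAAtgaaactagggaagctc
Mki67: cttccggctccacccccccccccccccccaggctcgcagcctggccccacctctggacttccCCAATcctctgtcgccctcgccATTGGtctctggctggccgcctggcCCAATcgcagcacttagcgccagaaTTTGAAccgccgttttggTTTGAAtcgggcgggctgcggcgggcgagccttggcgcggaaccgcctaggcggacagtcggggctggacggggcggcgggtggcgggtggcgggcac

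In the Ccnb2 window 3 CCAAT boxes lay 16, 49 and 82 bases before the start, and the CHR lay 161 bases before it. Ect2 also had 3 CCAAT boxes, at 18, 74 and 115 bases, with the CHR at 132. RefSeq lists another start for Ect2, from which CCAAT boxes lay at 50 and 91 bases and the CHR at 108. Top2a had 6 CCAAT boxes and 4 CHR matches, and Mki67 3 CCAAT boxes with CHR matches at 92 and 110 bases. No CHR shared a base with a CCAAT box in these 4 windows.

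Differences between groups were tested with limma on log2(FPKM + 1), a scale that understates the change of low genes. A gene passed the test when its Benjamini-Hochberg adjusted p over 13162 genes was under 0.05 and its difference was at least 1. Of the 46 genes 44 were tested, and Ndc80 and Espl1 were too low. Against undamaged liver, 5 of the 44 rose at 72 h (Ccnb2, Spc25, Bub1, Mad2l1 and Smc2), where 1.15% of all genes rose, and none fell (2.07% of all genes). In GENCODE M21 (GRCm38) these genes lie at chr9:70407692-70421547 (Ccnb2, minus strand), chr2:69193895-69206194 (Spc25, minus), chr2:127801122-127831865 (Bub1, minus), chr6:66535390-66547220 (Mad2l1, plus) and chr4:52439243-52488260 (Smc2, plus). Only Spc25 of the 5 passed with a replicate block (limma adjusted p = 0.0192; 0.0528 to 0.0684 for the others), on recovered reads with voom, or without the filter on low values, and with pseudocount 0.1 Spc25, Bub1 and Smc2 passed. Markers of other cells differed between the same groups: 4 of 8 stellate cell markers rose at 72 h (Dcn, Col3a1, Rgs5 and Lrat), and their sum was 58.1 and 60.01 FPKM at 72 h against 4.11 and 18.8 in undamaged liver. All 7 Kupffer cell markers had positive differences (median 1.68, none passed), with sums of 548 and 376 FPKM against 24.9 and 586. All 8 hepatocyte markers had negative differences (median -0.99, none passed), with sums of 37575 and 53504 FPKM against 64869 and 76332. None of the stellate, Kupffer and hepatocyte markers was at 0 in the 72 h libraries, and their part in the mitotic rise was not tested. The median difference of the 44 genes was 1.82, and that of all genes -0.05. At an unadjusted p under 0.05 the count was 40. The share of all genes at that threshold was not counted, here or for the other unadjusted counts below, so these have no background. For 43 of the 46 genes both 72 h libraries lay above both undamaged libraries (20.1% of genes tested), and the exceptions were Spc24, Espl1 and Pttg1. Rescaled to the same FPKM sum, 45 of the 46 did (42.2% of genes tested), and the exception was Pttg1. The voom fit on recovered reads took its library sizes from the deposited FPKM scale. By limma or by voom, no gene passed at 6, 12, 24 or 48 h or at 7, 14 or 21 d. The shares of all genes called at those times were 13.3%, 5.56%, 0.228%, 0.691%, 0.608%, 0% and 0%. At an unadjusted p under 0.05 the counts were 7 at 48 h, 1 at 7 d and 0 at the other 5 times. The median differences at 48 h and 7 d were 0.99 and 0.75 with 2 replicates that lay far apart (43 of 44 were positive at 7 d, and 7 of 44 without replicate 2), and those at 6, 12, 24 h, 14 d and 21 d ran from -0.24 to -0.01. At 48 h 10 genes had both libraries above both undamaged ones (14.9% of genes tested), and at 7 d 5 did (14.1%).

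The fit shares one estimate of spread among all groups, so the wide pairs at 48 h and 7 d enter the error of every comparison. For refits without some libraries the calls over all genes are not given here, so their counts of the 44 genes have no background. The 72 h count became 37 when both times were left out, which was tried with the data in view. It was 23 or 24 without either 48 h library, 25 or 24 without either 7 d library, 3 without either Hep-Org library, 1 without either undamaged library and 0 without either 72 h library. With all libraries rescaled to the same FPKM sum it was 26, and the median of all genes moved to 0.39. Over the 8 PHx times an F test called 4 of the 44 genes (Spc25, Bub1, Smc2 and Mad2l1; 33 at an unadjusted p under 0.05), where 13.6% of all genes were called. The mean was highest at 72 h for 43 of the 44, and for Pttg1 at 21 d. The number of genes called by the F test, 4 as reported, depended on the libraries used. That count was 41 without 48 h and 7 d, 16 or 32 without either 48 h library, 29 or 23 without either 7 d library, and 0 without either 72 h library. It was 2 without either undamaged, 24 h or Hep-Org library or replicate 2 at 14 or 21 d, and 1 without either 6 h or 12 h library or replicate 1 at 14 or 21 d. In the mean of 24, 48 and 72 h against that of 14 and 21 d, 0 of 44 genes passed by limma or voom (0.593% of all genes), 36 had an unadjusted p under 0.05 and the median difference was 0.93. The count was 5 without replicate 2 at 48 h, 1 without either 6 h or either 7 d library, and 7 without 48 h and 7 d.

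**Figure D2:**
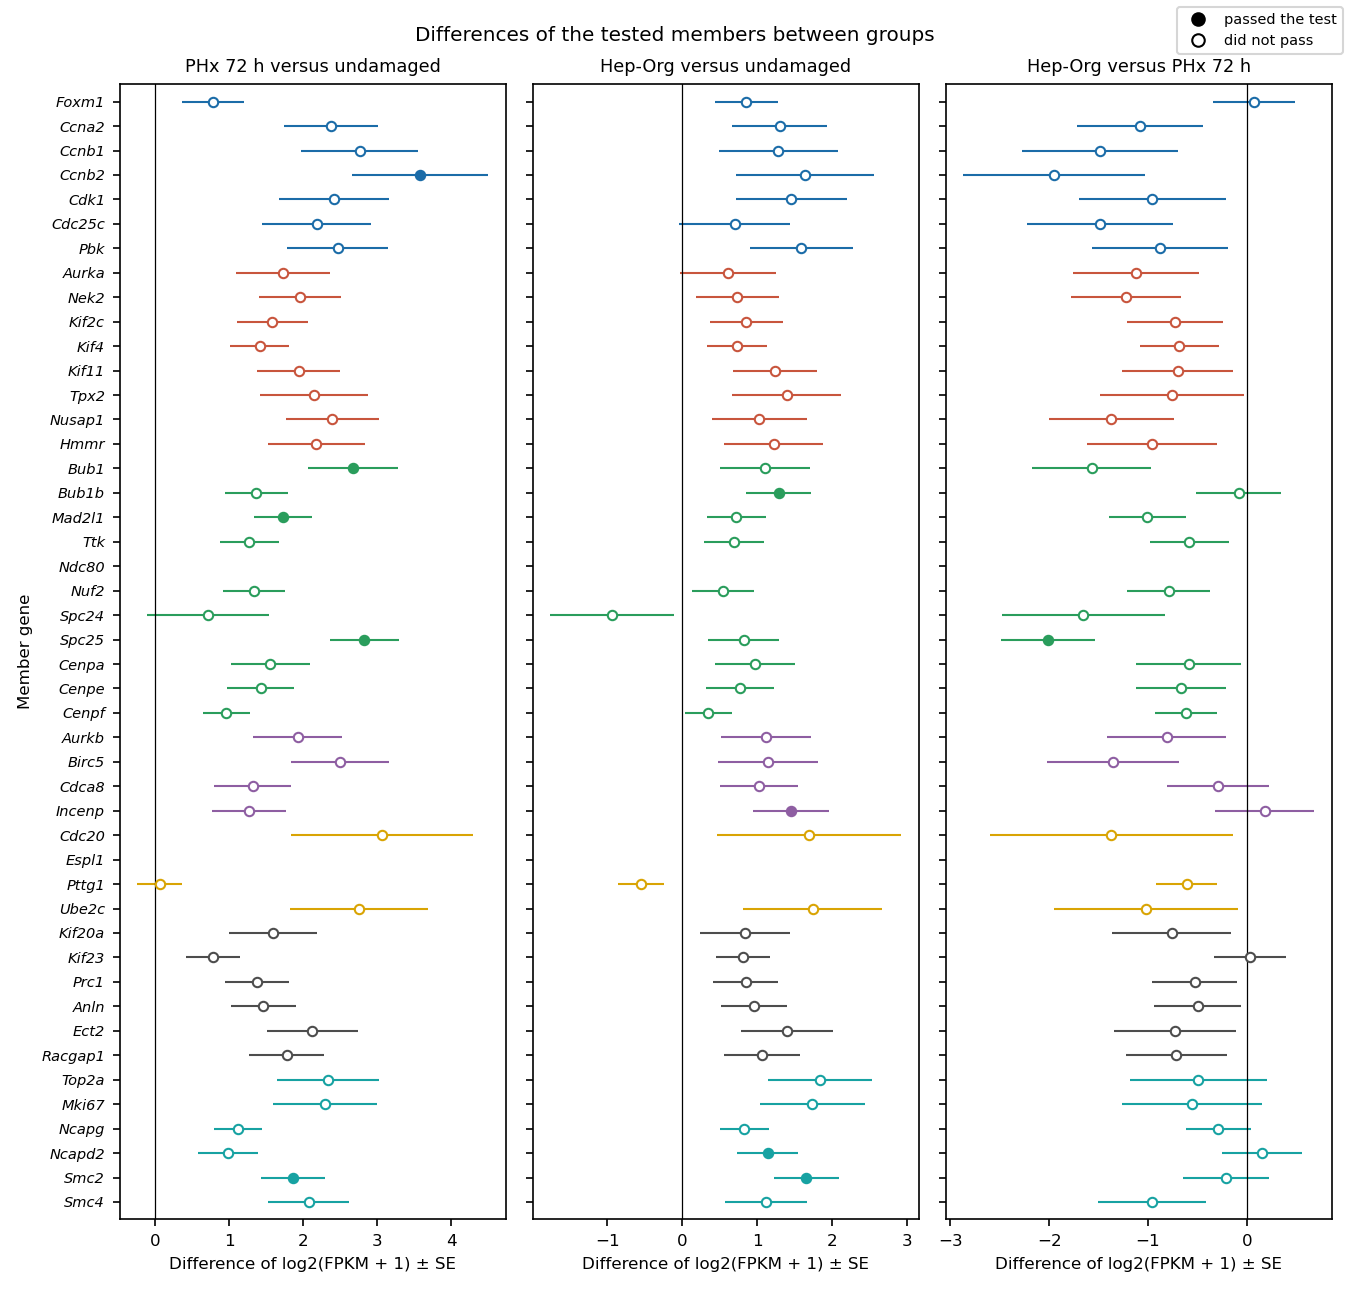
Differences of mean log2(FPKM + 1) with their standard errors for the 44 tested genes, coloured by role, in 3 comparisons of groups of 2 libraries; filled points passed the test. All points of the first panel lie above 0, most points of the second panel do (42 of 44), and 4 of 44 in the third. Rescaled to the same FPKM sum, the counts above 0 were 44 in the second and 22 in the third.

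The gene of cyclin B2 showed the widest 72 h difference among the genes of mitotic entry on the log2(FPKM + 1) scale. Ccnb2 was at 17.8 and 24.7 FPKM at 72 h, 10.5 and 0.871 at 48 h, 0.449 and 13.7 at 7 d, and 4.99 and 4.43 in Hep-Org. In undamaged liver it was at 0.414 and 1.38 FPKM. Over the 12 libraries of undamaged liver, 6, 12 and 24 h, 14 d and 21 d it ran from 0 to 2.05 with a median of 0.771 FPKM. The groups at 72 h and in undamaged liver did not overlap, and the 72 h difference was 3.58 ± 0.92 (SE; limma adjusted p = 0.0473). Ccnb1, the gene of cyclin B1 and main partner of Cdk1, was at 10.7 and 6.62 FPKM at 72 h against 0.0231 and 0.893 in undamaged liver, a difference of 2.76 that did not pass (limma adjusted p = 0.0647). Cdk1, the kinase that starts mitosis, was at 11.5 and 5.04 FPKM at 72 h, 8.63 and 0.554 at 48 h, and 0.0791 and 1.47 in undamaged liver. At 24 h it was at 1.496 and 0.2998 FPKM, 1 library barely above the higher undamaged value and 1 between the undamaged values. Ccna2, the gene of cyclin A2, which acts from S phase to early mitosis, had 6.49 and 7.18 FPKM at 72 h and 4.63 and 0.555 at 48 h. Foxm1, the transcription factor that drives many of these genes, stayed low: 2.22 and 0.116 FPKM at 48 h, 1.05 and 1.18 at 72 h, 0.0426 and 1.29 at 7 d, and 1.37 and 1.08 in Hep-Org. Foxm1 did not exceed 0.447 FPKM in the 12 libraries of the other liver groups. Cdc25c, a phosphatase that activates Cdk1, had its highest value, 6.34 FPKM, in replicate 2 at 7 d, and the kinase gene Pbk its highest, 8.95 FPKM, in replicate 1 at 48 h.

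None of the 8 genes of spindle poles and motors passed at 72 h, and their differences from undamaged liver ran from 1.41 (Kif4) to 2.39 (Nusap1). Aurora A kinase, which matures the spindle poles, was also found in resting tissue: Aurka was at 1.10 and 1.74 FPKM in undamaged liver, 11.8 and 1.502 at 48 h, 10.7 and 4.41 at 72 h, and 1.30 and 4.39 at 7 d. Tpx2, its activator on the spindle, was at 5.42 and 0.399 FPKM at 48 h, 7.86 and 4.06 at 72 h, and 0.157 and 5.24 at 7 d. Its highest value over the 12 libraries of the other liver groups was 1.199 FPKM, in undamaged replicate 2. Kif11, the motor that pushes the poles apart, was at 4.81 and 3.32 FPKM at 72 h against 0.0911 and 0.572 in undamaged liver. Kif2c and Kif4, motors that act on microtubule ends and on chromosome arms, were lower, with at most 3.16 and 2.36 FPKM in any library. Nek2 (a centrosome kinase), Hmmr and Nusap1 (both microtubule-binding) followed the same libraries, with 72 h values between 3.19 and 7.68 FPKM.

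The kinetochore and checkpoint group held 3 of the 5 genes that rose at 72 h. Spc25, a subunit of the Ndc80 complex that grips microtubules, was at 10.6 and 10.8 FPKM at 72 h and at 0.658 and 0.634 in undamaged liver. It was at 5.88 and 2.43 FPKM at 48 h, 1.12 and 4.96 at 7 d, and 1.74 and 2.07 in Hep-Org, so that all 8 libraries of these 4 groups lay above both undamaged libraries. The 72 h difference was 2.83 ± 0.47 (SE; limma adjusted p = 0.0104). Bub1, a checkpoint kinase, was at 6.28 and 5.13 FPKM at 72 h against 0.0112 and 0.0844 in undamaged liver, a difference of 2.67 ± 0.61 (SE; limma adjusted p = 0.0334). At 48 h it was at 5.92 and 1.09 FPKM and at 7 d at 0.192 and 4.26, again above both undamaged values in each library. Mad2l1, which encodes the checkpoint protein MAD2, was at 3.46 and 3.29 FPKM at 72 h against 0.256 and 0.394, a difference of 1.73 ± 0.39 (SE; limma adjusted p = 0.0328).

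The other kinetochore genes had smaller 72 h differences from undamaged liver on the log2(FPKM + 1) scale, which understates the change of low genes. Bub1b, Ttk, Nuf2, Cenpa, Cenpe and Cenpf had differences of 0.96 to 1.55, with 72 h values between 1.04 and 4.96 FPKM. Ndc80, which names its complex, reached 1.13 FPKM in replicate 1 at 48 h and 0.819 and 0.924 at 72 h, and was at 0 and 0.0566 in undamaged liver. Spc24, the partner of Spc25 in the same complex, did not share its pattern: it was at 4.06 and 2.29 FPKM in undamaged liver, 8.11 and 3.93 at 72 h, 7.65 and 1.87 at 24 h, and 0.978 and 1.29 in Hep-Org. Its 12 libraries at the other liver groups ran from 0.228 to 7.65 FPKM, a range that covered the lower 72 h value. Its Hep-Org difference from undamaged liver was -0.94 as deposited (limma adjusted p = 0.409) and 0.31 rescaled to the same FPKM sum (limma adjusted p = 0.707), so that its direction depends on the scale.

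The chromosomal passenger complex corrects faulty attachments and later guides cytokinesis. Its kinase Aurkb was at 6.38 and 0.317 FPKM at 48 h, 4.60 and 3.06 at 72 h, 0.2997 and 1.94 at 7 d, and 0.0331 and 0.530 in undamaged liver. Birc5 (survivin) was at 4.82 and 10.01 FPKM at 72 h, so that unlike Aurkb it was higher in replicate 2. Incenp, the scaffold of the complex, was at 0.258 and 1.66 FPKM in undamaged liver, 4.39 and 2.59 at 72 h, and 4.28 and 3.71 in Hep-Org. None of the 4 genes passed at 72 h, with differences of 1.27 (Incenp) to 2.49 (Birc5).

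Anaphase genes had both the highest level and the flattest profile. Cdc20, which activates the anaphase-promoting complex, was at 35.5 and 9.38 FPKM at 72 h, 23.2 and 0.607 at 48 h, 0.368 and 13.4 at 7 d, and 7.73 and 5.49 in Hep-Org. Its undamaged values were 0.0783 and 4.03 FPKM, and with both pairs so wide the 72 h difference of 3.06 ± 1.23 (SE) did not pass (limma adjusted p = 0.164). Ube2c, the ubiquitin-conjugating enzyme of that complex, was at 18.2 and 6.74 FPKM at 72 h and 0.0563 and 2.09 in undamaged liver. Espl1 (separase) stayed under 1 FPKM in every library. Pttg1 encodes securin, the inhibitor of separase, and was at 5.66 to 12.6 FPKM in all 18 liver libraries: 7.73 and 6.16 in undamaged liver, 8.38 and 7.40 at 48 h, and 9.21 and 5.66 at 72 h. Its 72 h difference was 0.06 (limma adjusted p = 0.946), and its Hep-Org values, 3.40 and 5.63 FPKM, lay below all liver libraries on the deposited scale. Rescaled to the same FPKM sum, Pttg1 was at 9.12 and 16.6 in Hep-Org against 8.16 and 3.09 in undamaged liver, and its difference turned positive (1.13; limma adjusted p = 0.0499).

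Cytokinesis genes were lower in level. Ect2, which activates RhoA at the cleavage site, was at 6.06 and 4.60 FPKM at 72 h, 3.72 and 0.582 at 48 h, 0.164 and 4.99 at 7 d, and 0.0634 and 0.955 in undamaged liver. Racgap1 and Kif23, which form the centralspindlin complex, were at 2.66 and 3.45 and at 1.07 and 1.33 FPKM at 72 h. Kif20a, a midzone motor, had its highest value in replicate 2 at 7 d (6.20 FPKM) and was at 1.49 and 0.211 at 48 h. Prc1, which bundles midzone microtubules, and Anln, a scaffold of the contractile ring, were at 1.91 to 2.46 FPKM at 72 h. The 6 differences from undamaged liver at 72 h ran from 0.78 to 2.12, and none passed.

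Of the chromosome structure genes Smc2, a condensin subunit, rose at 72 h, to 4.11 and 5.10 FPKM from 0.418 and 0.654 (difference 1.87 ± 0.43, SE; limma adjusted p = 0.0354). Smc4, its partner, had the highest resting level of these 6, 1.12 to 3.57 FPKM in the 12 libraries of the other liver groups, and was at 9.35 and 11.1 at 72 h. Mki67, whose product Ki-67 coats mitotic chromosomes and marks cycling cells, was at 8.09 and 0.616 FPKM at 48 h, 7.05 and 5.84 at 72 h, 0.224 and 4.91 at 7 d, and 0.136 and 1.02 in undamaged liver. Top2a, the topoisomerase that untangles sister chromatids, was at 7.49 and 0.895, 6.71 and 6.16, 0.142 and 4.64, and 0.0704 and 1.03 FPKM in the same order. The condensin genes Ncapg and Ncapd2 had 72 h differences of 1.12 and 0.98.

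**Figure D3:**
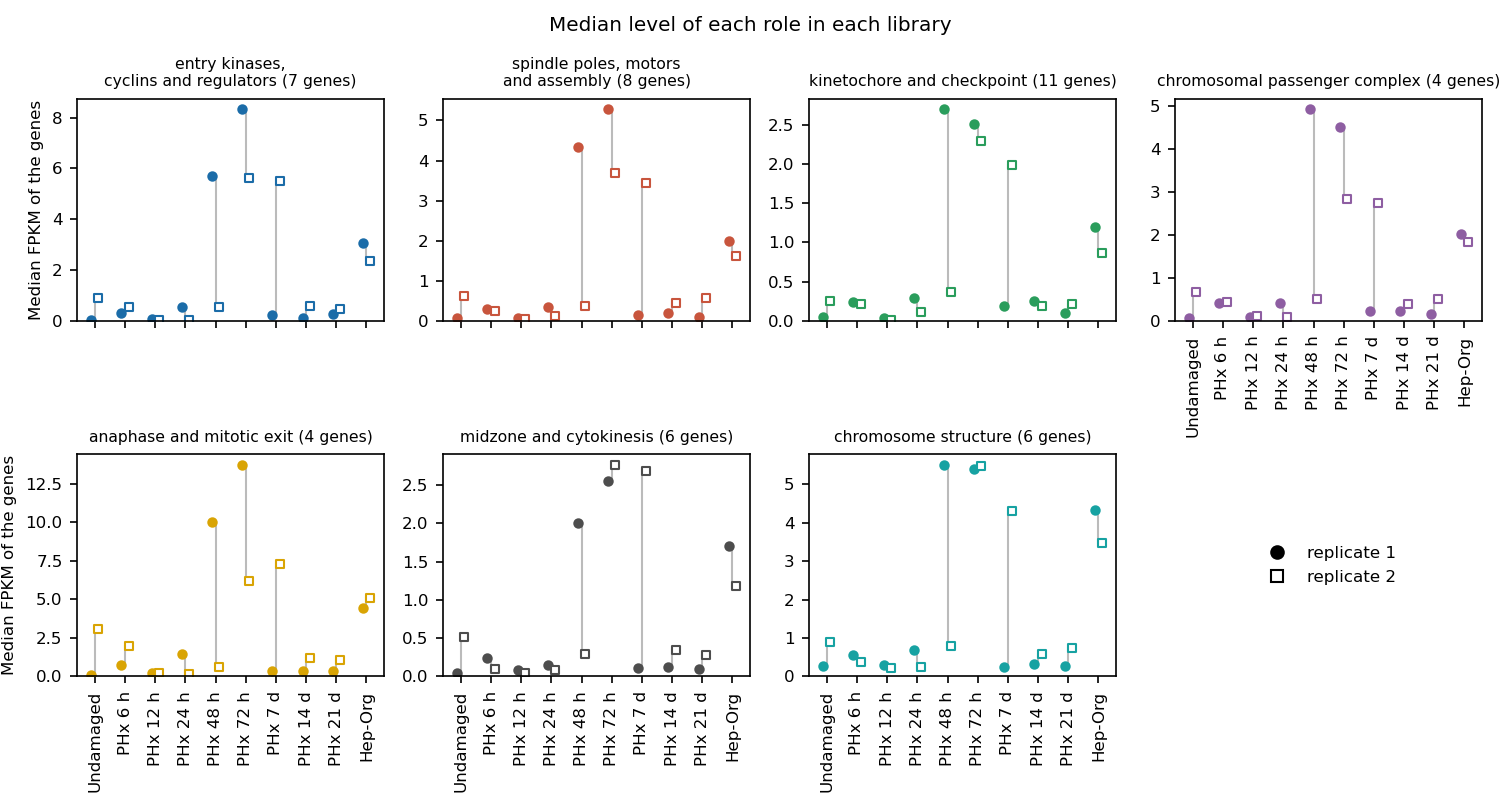
Median FPKM of the genes of each of 7 roles in each library, with replicate 1 as filled circles, replicate 2 as open squares and a grey line joining the pair; each panel has its own linear axis from 0. Every role is high in replicate 1 at 48 h, both replicates at 72 h and replicate 2 at 7 d, and the pairs at 48 h and 7 d lie far apart. Among anaphase genes the 72 h pair, 13.7 and 6.20 FPKM, is wider than the 7 d pair, 0.316 and 7.27 FPKM.

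Replicates of 1 label lay far apart at 48 h and 7 d. At 48 h all 46 genes were lower in replicate 2, by a median of -1.63 on the log2(FPKM + 1) scale, and 39 differed by 1 or more, as did 7.37% of all genes. At 7 d 45 of the 46 were higher in replicate 2, by a median of 1.57, and 42 differed by 1 or more (10.9% of all genes); the exception was Pttg1. The medians of all genes were within 0.03 of 0 at both times. The widest gaps were those of Cdc20, -3.91 at 48 h and 3.40 at 7 d. No replicate number was the high one at both times. All 7 roles shared the gap, with medians from -2.42 (mitotic entry) to -1.21 (chromosome structure) at 48 h and from 1.26 (kinetochore and checkpoint) to 2.35 (mitotic entry) at 7 d. Kupffer cell markers summed to 319 and 304 FPKM in replicates 1 and 2 at 48 h, and hepatocyte markers to 35791 and 35359. At 7 d the Kupffer sums were 150 and 756 FPKM, the lymphocyte sums 2.25 and 8.84 and the hepatocyte sums 71161 and 27488, and their part in the 7 d gap was not tested. Sinusoidal endothelial markers summed to 115 and 59.5 FPKM at 48 h and 68.3 and 105 at 7 d, higher in the library with higher mitotic genes each time, and their part was not tested either.

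Within 72 h the genes lay closer, with a median replicate difference of -0.24. Role medians ran from -0.96 (4 anaphase genes) to 0.14 (6 chromosome structure genes), and differences between roles were not tested. Cdc20, Ube2c, Aurka, Nek2 and Cdk1 were 1 or more lower in replicate 2, while Ccnb2 and Birc5 were higher there. In all, 5 of the 46 genes differed by 1 or more, as did 6.45% of all genes. In undamaged liver 43 of 46 genes were higher in replicate 2, by a median of 0.45. The Kupffer marker sum was 24.9 FPKM in undamaged replicate 1 and 586 in replicate 2, the lymphocyte sum 0.268 and 2.62, and their part in that difference was not tested. At 24 h 43 of 46 genes were lower in replicate 2, by a median of -0.30, and 4 differed by 1 or more (6.88% of all genes). At 6 h and 12 h the medians were -0.03 and -0.05, at 14 d and 21 d 0.24 each, and in Hep-Org -0.18 with 0 genes past 1. All these replicate differences are on the deposited scale, and FPKM sums differed within pairs, such as 708167 and 429204 at 24 h. Rescaled to the same FPKM sum, the 24 h medians of the 46 genes were 0.324 and 0.109 in replicates 1 and 2. The rescaled medians were 0.358 and 0.116 at 6 h and 0.0632 and 0.323 in undamaged liver. They were 3.36 and 0.382 at 48 h and 0.177 and 5.42 at 7 d.

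**Figure D4:**
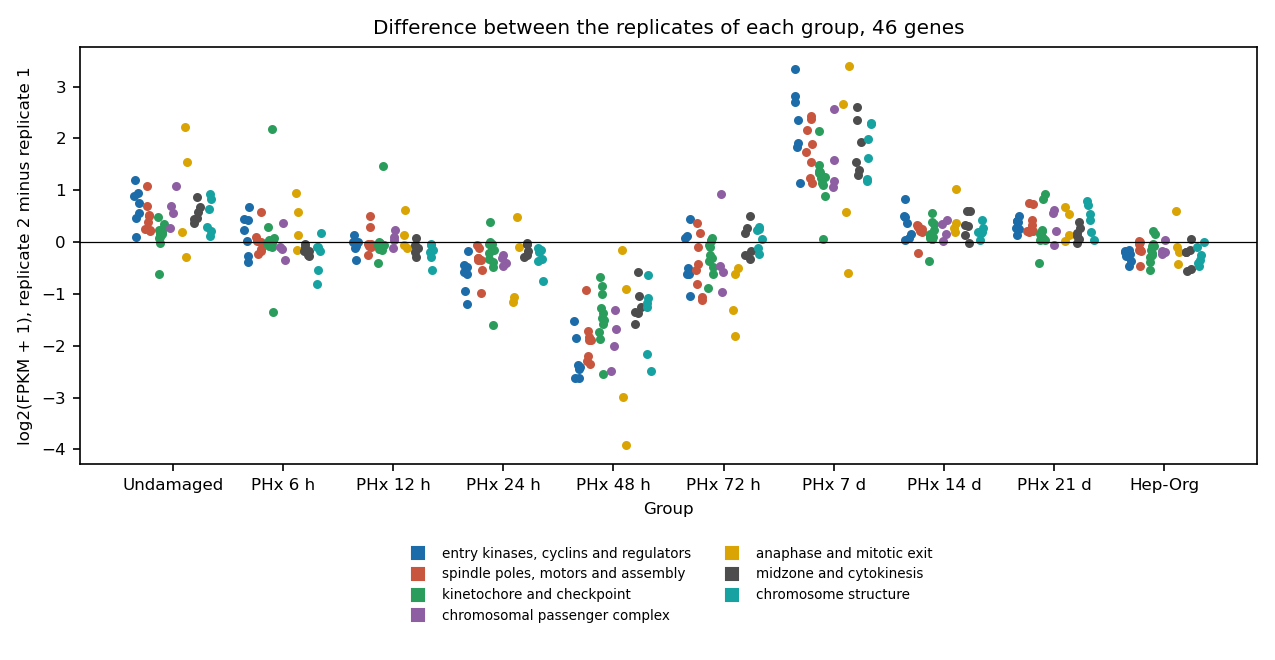
Replicate 2 minus replicate 1 in log2(FPKM + 1) for each of the 46 genes (points coloured by role, spread sideways for visibility) in each of the 10 groups. Points lie far below 0 at 48 h (median -1.63), far above 0 at 7 d (median 1.57) and near 0 in Hep-Org (median -0.18).

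In the organoids the mitotic genes were above undamaged liver on both scales tried, and below 72 h liver on the deposited scale only: rescaled to the same FPKM sum their median difference from 72 h was 0.01. For 44 of the 46 genes both Hep-Org libraries lay above both undamaged libraries (33.9% of genes tested), and Spc24 and Pttg1 lay below (35.5%). Rescaled, 45 lay above (71.1%) and 0 below (11.05%), and the differences of Spc24 and Pttg1 turned positive. Higher than in undamaged liver by the test were 4 of 44 (Incenp, Smc2, Ncapd2 and Bub1b), where 10.6% of all genes were higher, and none was lower (13.8% of all genes). The median difference was 1.04, with 12 genes at an unadjusted p under 0.05. Smc2 was at 3.99 and 3.65 FPKM in Hep-Org, and its difference was 1.65 ± 0.43 (SE; limma adjusted p = 0.00991). Incenp differed by 1.45 ± 0.50 (SE; limma adjusted p = 0.0402). Bub1b, which encodes the checkpoint protein BubR1, was at 2.39 and 2.04 FPKM against 0.114 and 0.559, a difference of 1.28 ± 0.43 (SE; limma adjusted p = 0.0349). Ncapd2 was at 2.55 and 2.56 FPKM against 0.459 and 0.792 (1.14 ± 0.40, SE; limma adjusted p = 0.0442). Markers of sinusoidal endothelium summed to 0.333 and 0.195 FPKM in Hep-Org, those of lymphocytes to 0.0317 and 0.0404 and those of Kupffer cells to 2.83 and 0.0861. The count was 1 or 2 without undamaged replicate 1 or 2, 0 or 1 without Hep-Org replicate 1 or 2, 9 without either 48 h library, 11 without either 7 d library, and 23 without both times. Rescaled to the same FPKM sum, 43 genes passed, but the median of all genes then moved from -0.03 to 1.29. The calls over all genes went from 1393 higher and 1817 lower to 8360 higher and 749 lower.

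Against the mean of 14 and 21 d, 11 of 44 genes were higher in Hep-Org (11.9% of all genes) and none lower (14.2%), with a median of 1.02. These were Foxm1, Ccna2, Pbk, Bub1b, Incenp, Kif23, Ect2, Top2a, Mki67, Ncapd2 and Smc2, and 20 genes had an unadjusted p under 0.05. Chromosome structure held 4 of them, among which Smc2 differed by 1.56 ± 0.37 (SE; limma adjusted p = 0.00469) and Top2a by 1.89 ± 0.60 (SE; limma adjusted p = 0.0226). Incenp differed by 1.69 ± 0.43 (SE; limma adjusted p = 0.00727). None of the spindle pole and motor genes passed. The count was 1 or 4 without Hep-Org replicate 1 or 2, 5 to 7 without any 1 of the 14 and 21 d libraries, 7 without either 72 h library, 17 without either 48 h library, 19 without either 7 d library and 23 without both times. Rescaled it was 41, with the median of all genes at 0.98 and 6890 higher and 1106 lower calls in place of 1560 and 1865.

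Against 72 h, a comparison added after the data were seen, 39 of the 46 genes were lower in both Hep-Org libraries than in both 72 h libraries (35.8% of genes tested). Ncapd2 was higher in both (37.6% of genes tested), and Foxm1, Bub1b, Cdca8, Incenp, Espl1 and Kif23 overlapped. Rescaled to the same FPKM sum, 11 genes were lower in both (17.5%) and 12 higher in both (66.1%), and 18 of the 44 differences changed sign. Spc25 alone passed, 2.01 lower (difference -2.01 ± 0.47, SE; limma adjusted p = 0.0056; 12.9% of all genes were lower and 10.7% higher), and 5 genes had an unadjusted p under 0.05. The median difference was -0.74 as deposited and 0.01 after rescaling to the same FPKM sum, where the median of all genes moved from 0.01 to 0.91 and no member passed. Spc25 was then at -1.22 (limma adjusted p = 0.0795; 0.00131 to 0.0795 over its alternatives). On the deposited scale the 44 genes thus lay below 72 h, and on the rescaled one near 72 h while most other genes lay above it. On the deposited scale the median difference was -1.08 for mitotic entry, -0.86 for spindle poles and motors and -0.39 for chromosome structure, and differences between roles were not tested. The count was 3 without either 48 h library, 6 without either 7 d library and 10 without both times. Against the mean of 24, 48 and 72 h 0 of 44 genes passed (24.8% of all genes in either direction), 2 had an unadjusted p under 0.05, voom called 1 and the median was 0.20, with 33 of 44 differences positive (14 without replicate 2 at 48 h). Rescaled the count was 25, with the median of all genes at 1.11 and 7698 higher and 1024 lower calls in place of 1412 and 1848.

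Other mitotic genes, a list of 83 of which 69 were tested, gave 7 higher and 0 lower at 72 h, with a median of 0.94. Of all genes 1.15% were higher and 2.07% lower. Melk, a kinase of cycling cells, differed by 1.57 ± 0.36 (SE; limma adjusted p = 0.0347) and Cenpp, a centromere protein, by 2.33 ± 0.55 (SE; limma adjusted p = 0.0365). In Hep-Org against undamaged liver 13 of the 69 were higher and 1 lower (10.6% and 13.8% of all genes). The first by size were Psrc1, at 17.9 and 34.6 FPKM in Hep-Org and at most 1.10 in any liver library, and Gtse1, at 11.7 and 22.01 FPKM in Hep-Org and at most 3.48 in liver. Both are p53-responsive genes whose products bind microtubules, and both organoid libraries exceeded every liver library. Against 72 h 2 of the 69 were higher (Psrc1 and Gtse1) and 5 lower, where 10.7% and 12.9% of all genes were.

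DNA replication genes, 28 of which 22 were tested, did not follow the mitotic genes in every library. Their median level was 2.19 and 1.06 FPKM at 24 h, 2.37 and 1.43 at 48 h, 1.95 and 2.29 at 72 h, 0.528 and 1.72 at 7 d, and 0.476 and 0.873 in undamaged liver. On the deposited scale replicate 1 at 24 h had a replication median between those at 72 h with a mitotic median of 0.462 FPKM. The FPKM of that library summed to 708167, against 400443 and 369280 at 72 h. Replication medians were not rescaled, so this order may not hold at the same FPKM sum. Replicate 2 at 48 h had 1.43 FPKM for replication and 0.414 for mitosis. Mcm2, a subunit of the replicative helicase, was at 2.54 and 0.514 FPKM at 24 h, 2.11 and 1.43 at 48 h, and 1.82 and 1.46 at 72 h. At 72 h 4 of the 22 replication genes rose (Pcna, Rrm1, Tyms and Rfc4), where 1.15% of all genes rose. Pcna, the polymerase clamp, was at 20.6 and 33.1 FPKM against 7.30 and 6.66 in undamaged liver. In Hep-Org 13 of the 22 were higher than in undamaged liver, where 10.6% of all genes were higher. The replication median in Hep-Org, 2.57 and 2.45 FPKM, was above that of every liver library on the deposited scale. The mitotic median, 1.88 and 1.72 FPKM, was below those at 72 h on the deposited scale and between them after rescaling. Replication medians were not rescaled, so the lists are set side by side on the deposited scale only. The difference between the lists was not tested.

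**Figure D5:**
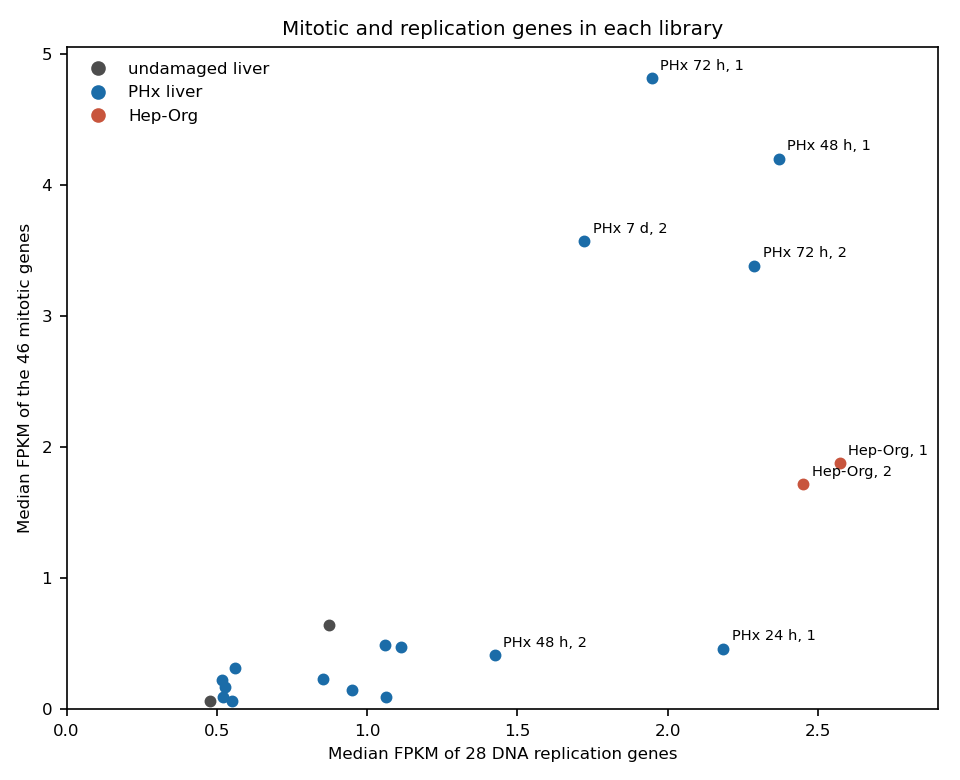
Median FPKM of the 46 mitotic genes against that of 28 DNA replication genes, 1 point per library, coloured by undamaged liver, PHx liver and Hep-Org. On this deposited scale replicate 1 at 24 h and both Hep-Org libraries have replication medians of 2.19 to 2.57 FPKM. Their mitotic medians are lower than those of the 72 h libraries. Rescaled, the Hep-Org mitotic medians lie between those at 72 h, and the replication medians were not rescaled.

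Some levels carry annotation limits. Exons of 14 of the 46 genes share bases with another gene in GENCODE M21, over 10% of the exon length for Kif20a (with Cdc23), Ube2c (Tnnc2), Kif4 (Pdzd11), Ncapg (Lcorl), Cdc25c (Gm3550), Ccna2 (Exosc9) and Prc1 (Rccd1), all on the opposite strand. Whether counting used the strand is not given, so reads in those bases cannot be told apart. Ccnb1, Ccnb2 and Kif4 have annotated processed pseudogenes, and how reads that match both were counted is likewise not given.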

How the data were processed

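RNA was sequenced in 20 libraries, 2 in each of 10 groups, and 1 table of FPKM for 54532 Ensembl genes was deposited. Reads were aligned with HISAT2 2.0.5 to mm10, per the submitters' processing notes. For the counter, annotation, strand setting and scaling behind the FPKM that the authors deposited, nothing is given in the sources used here. Table columns were matched to samples by library name; undamaged replicate 1 was matched to control_l, read as control_I, since no other column could be it. GENCODE M21 (GRCm38) gave symbols for 54495 genes, lengths and positions. FPKM times exon length, in steps of 1 read, came out whole (within 0.05 of a read, up to 20 reads) for 97.9 to 98.8% of values, which gave totals of 13.7 to 41.3 M reads per library.

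The model was fitted with limma 3.58.1 (R 4.3.3) on log2(FPKM + 1), pseudocount 1, with 1 mean per group over all 20 libraries and trended, robust variances (10 residual degrees of freedom). Genes with at least 1 FPKM in at least 2 libraries were tested (13162). Calls needed a Benjamini-Hochberg adjusted p under 0.05 and a difference of at least 1, or for the F test a range of at least 1. The fits were tested on simulated data. Alternatives were pseudocount 0.1, no filter, a common FPKM sum, a replicate block, voom on recovered reads, and each library left out. The voom fit used the library sizes implied by the deposited FPKM, not the recovered read totals. The 46 members and all gene lists were chosen with earlier results of these data known. All members could be named, with statistics for up to 3 called members per role and comparison by largest t, and from the other lists the 5 largest t. Leaving out both libraries of 48 h and of 7 d, and the comparison of Hep-Org with 72 h, were added after the data were seen. No 2 libraries held identical values. The sum over the cholangiocyte marker list is not reported here, and the 3 of its genes given were chosen after their values were seen.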

Additional observations from a re-analysis of the deposited data

How the results depend on the processing

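Counts of the 44 tested genes called are given here in the order PHx time course, 72 h against undamaged, and Hep-Org against undamaged, against 24 to 72 h, against 14 to 21 d and against 72 h. As reported they were 4, 5, 4, 0, 11 and 1. Calls over all genes in the other fits are given only where the text above states them. With pseudocount 0.1 the 72 h count was 3. Without the filter on low values the first 3 were 1, 1 and 1 and the count against 14 to 21 d was 5. Rescaled to the same FPKM sum the last 5 were 26, 43, 25, 41 and 0. On recovered reads with voom the time course and 72 h gave 1 each, and Hep-Org against 24 to 72 h, 14 to 21 d and 72 h gave 1, 23 and 3. Without 48 h and 7 d they were 41, 37, 23, 0, 23 and 10, and 24 to 72 h against 14 to 21 d gave 7. Leaving out 1 library at a time gave 0 to 32, 0 to 25, 0 to 11, 0 to 2, 1 to 19 and 1 to 6, where a lone library is assumed to vary like the other groups, with 0 to 5 for 24 to 72 h against 14 to 21 d and 0 to 1 for 7 d against undamaged. Groups share replicate numbers, but over 28 pairs of PHx times the replicate differences correlated from -0.38 to 0.47 (median -0.12; over 0.1 in 4 pairs), so the numbers were not taken to pair libraries. With a replicate block, over all groups or as submission, the time course gave 2, 72 h gave 1, Hep-Org against undamaged 2 and against 14 to 21 d 7. The block moved no other count by over 1.5 times. No difference that passed changed sign under any of these alternatives. Among those that did not pass, rescaling changed the sign of 18 of 44 against 72 h, 10 against 24 to 72 h, 21 at 14 d and 17 at 21 d, and leaving out replicate 2 at 7 d changed 36 of 44 at 7 d. With 2 libraries a group, differences as wide as those within 48 h and 7 d could not be resolved, and genes under 1 FPKM rest on few reads.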
